A study of Homo sapiens with 6 samples.

Results

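The 10 genes described here are secreted agonists, receptors, antagonists and targets of the WNT pathway, taken by name from a fixed list among the 60658 gene identifiers of the series. They are RSPO3, WNT5A, FZD7, DKK1, SFRP1, NOTUM, RNF43, LEF1, TCF7 and AXIN2, and each matched 1 identifier. The list was chosen with earlier results of these data known. The series holds 1 RNA library from each of 6 human prostate cancer lines. C4-2B, a castration-resistant member of the LNCaP family, was the parent of TaxR, which was kept under 5 nM docetaxel. CabR was derived from TaxR and kept under 5 nM cabazitaxel. DU145, an androgen-independent prostate carcinoma line, was the parent of DTXR (5 nM docetaxel), and CTXR was derived from DTXR (5 nM cabazitaxel). Both drugs are taxanes, which stabilise microtubules, and all cells were untreated before RNA was taken. The labels name single derived lines, so each subline stands for 1 selection, and they do not say whether it is a clone.

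WNT proteins bind a Frizzled receptor and its LRP co-receptor, which stops the destruction complex from degrading beta-catenin. Beta-catenin then enters the nucleus and acts with TCF and LEF factors, which raise targets such as AXIN2, LEF1, NOTUM, RNF43 and DKK1, several of which feed back as inhibitors. R-spondins such as RSPO3 act through LGR receptors by removing RNF43 and ZNRF3, the ubiquitin ligases that take Frizzled off the cell surface. In prostate cancer the pathway is known for roles in growth without androgen, and secreted DKK1 for its effect on bone.

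Values are deposited FPKM, fragment estimates divided by transcript length and library size. The size rule for calling a gene higher or lower between a pair of lines is a log2 ratio of (FPKM + 1) of 1 or more in either direction. This scale understates the change of low genes. With 1 library per line there is no replicate spread, no ratio between a pair of lines carries a p-value, and the order of neighbouring levels has no error. Of the 60658 identifiers 17436 were measured, that is, reached 1 FPKM in at least 1 library, and 9 of the 10 listed genes were among them (WNT5A was not). Summed FPKM ranged from 711766 to 818430 over the libraries, and the read depth is unknown. Fewer expressing cells and less RNA per cell cannot be told apart in these bulk libraries. The line labels fitted their markers. KLK3, which encodes prostate-specific antigen and marks the luminal C4-2B side, was at 841 to 3567 FPKM in C4-2B, TaxR and CabR and at 0 to 0.301 in DU145, DTXR and CTXR. The library labelled TaxR also held low levels of DU145-side genes, which are given beside the result they touch.

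The upstream sequences of RSPO3 and DKK1 are shown because these 2 genes were the most abundant listed genes of DU145 and both were lower in its resistant sublines. They come from the RefSeq table on GRCh38.p14, which held 6 of the 10 genes (RSPO3, WNT5A, DKK1, RNF43, LEF1 and TCF7). The DKK1 stretch is chr10:52314031-52314280, plus strand, the 250 bases before the RefSeq start. The RSPO3 stretch is chr6:127118421-127118603, plus strand, 183 bases that end where the first RSPO3 exon of GENCODE begins. Capitals mark the TCF/LEF core CTTTGA or its reverse complement TCAAAG, and the TATA box TATAAA or TTTATA.
DKK1: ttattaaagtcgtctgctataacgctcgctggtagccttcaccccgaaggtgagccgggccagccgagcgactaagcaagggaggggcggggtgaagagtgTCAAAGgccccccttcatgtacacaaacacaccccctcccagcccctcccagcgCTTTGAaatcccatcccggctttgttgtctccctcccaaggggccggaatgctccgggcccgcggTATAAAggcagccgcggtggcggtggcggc
RSPO3: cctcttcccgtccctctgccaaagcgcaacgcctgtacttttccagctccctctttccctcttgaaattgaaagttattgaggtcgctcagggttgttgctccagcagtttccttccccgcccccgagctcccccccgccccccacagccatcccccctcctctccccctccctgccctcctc
The DKK1 stretch held the TCF/LEF core at 149 and 95 bases before the start and a TATA box at 30 bases. The 250-base RSPO3 window held none of these motifs. Of 35116 promoter windows of 250 bases in the table, 11.2% held the TCF/LEF core on either strand and 10.7% a TATA box. An upstream window of TCF7 also held a TATA box, 32 bases before its start, and one of RNF43 held an AP-1 site (TGANTCA, found in 6.57% of windows) at 47 bases. These are matches of letters and not shown to be bound.

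The agonist RSPO3 was expressed in parental DU145 and nearly absent from both of its resistant sublines. Its FPKM (ENSG00000146374, chromosome 6, 127118604 to 127197765, plus strand, GRCh38, GENCODE 29) was 33.6 for DU145, 0.835 for DTXR and 1.40 for CTXR. This was 40.2-fold lower in DTXR and 24.1-fold lower in CTXR, with log2 ratios of -4.24 and -3.85, and DTXR and CTXR differed by 0.38. RSPO3 was listed at 0 in C4-2B, TaxR and CabR, so DU145 alone stood high. The 3 protein-coding genes nearest to RSPO3 in log2(FPKM + 1) over the 6 libraries, Y-linked genes left out, were CYP24A1, CLDN11 and CFAP299, at Euclidean distances of 0.59, 1.76 and 1.87. CYP24A1, the vitamin D hydroxylase, had 31.8 FPKM for DU145, 1.71 for DTXR and 1.21 for CTXR. CLDN11, a tight junction claudin, had 11, 0.496 and 2.75 FPKM in the same lines, while CFAP299 was at 15.6 FPKM for DU145 and at 0 for the other 5 lines.

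**Figure D1:**
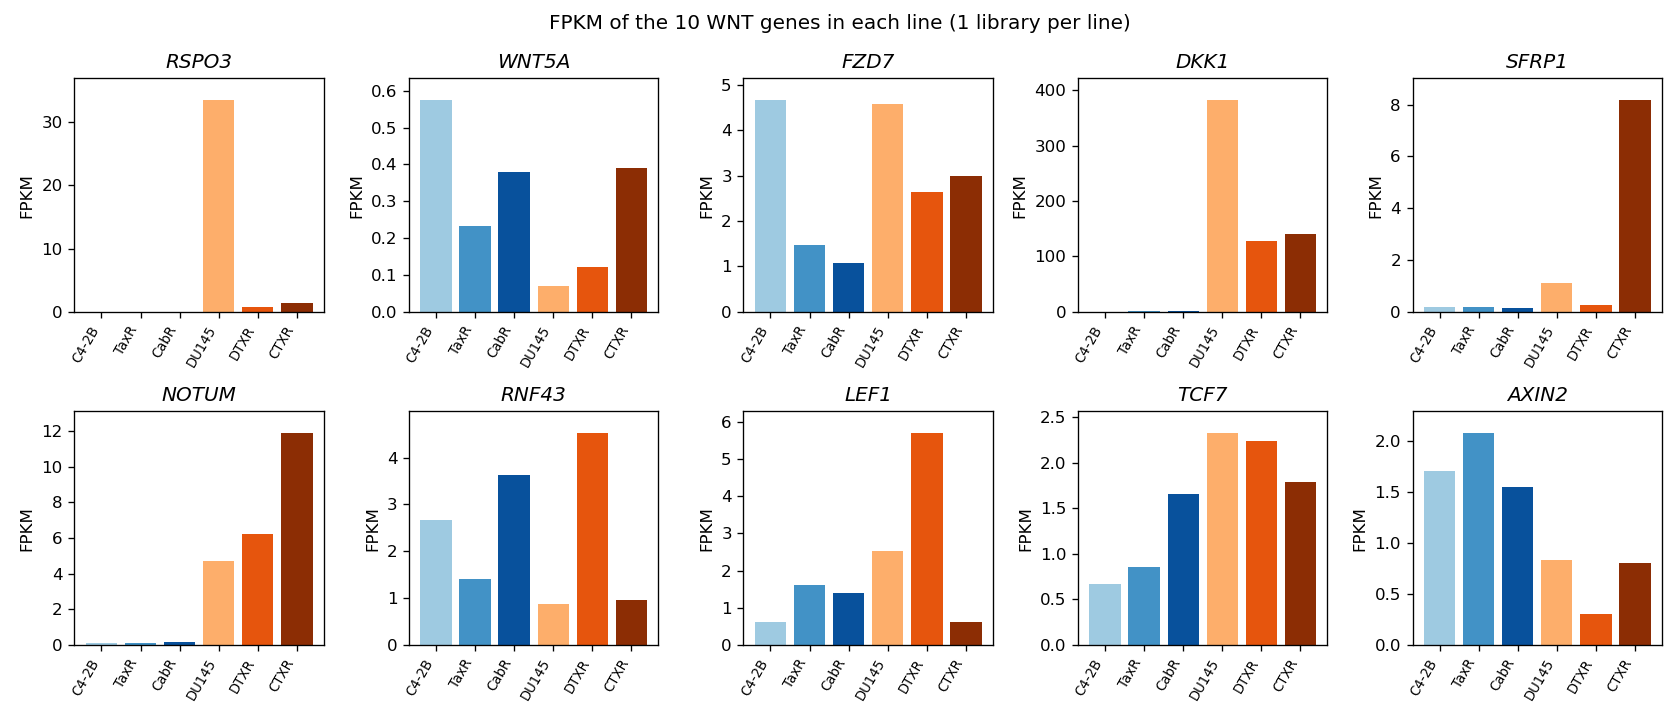
FPKM (linear y axes from 0, one scale per gene) of the 10 genes in each of the 6 lines, 1 bar per library with no error. RSPO3 (33.6) and DKK1 (383) stood highest in parental DU145, while SFRP1 (8.19) and NOTUM (11.9) stood highest in CTXR.

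WNT5A, a ligand best known for signalling that does not need beta-catenin, was low everywhere. WNT5A (chromosome 3, 55465715 to 55490539, minus strand) stood at 0.576, 0.234 and 0.379 FPKM along C4-2B, TaxR and CabR, and at 0.0714, 0.121 and 0.390 along DU145, DTXR and CTXR. No line reached 1 FPKM, so the size rule was not applied to it. FZD7, a Frizzled receptor, was lower in both resistant C4-2B sublines. Its FPKM (ENSG00000155760, chromosome 2, 202034587 to 202038445, plus strand) was 4.67 for C4-2B, 1.46 for TaxR and 1.07 for CabR, or 3.20-fold and 4.37-fold lower (log2 ratios -1.20 and -1.45). With a pseudocount of 2 in place of 1 the TaxR ratio was -0.95, short of the rule. In the other lineage it was 4.57 for DU145, 2.63 for DTXR and 2.99 for CTXR, with log2 ratios of -0.62 and -0.48 that did not pass the rule. All 4 resistant sublines were thus below their parent, and the 2 parents were close together.

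DKK1, which blocks the LRP co-receptor, was the most abundant of the 10 genes in DU145, DTXR and CTXR. Its FPKM (ENSG00000107984, chromosome 10, 52314296 to 52318042, plus strand) was 383 for DU145, 127 for DTXR and 140.5 for CTXR. It was 3.01-fold lower in DTXR and 2.73-fold lower in CTXR than in DU145, with log2 ratios of -1.58 and -1.44. PRKG1-AS1, an antisense gene that overlaps DKK1, had 8.07, 2.19 and 2.97 FPKM, and whether the counting used strand is not stated in the sources at hand. The genes nearest to DKK1 over the 6 libraries, by the same measure, were GSTP1, AXL and ANXA1, at distances of 1.84, 2.00 and 2.01. AXL and ANXA1 are also among the DU145-side markers. GSTP1, a glutathione transferase, had 145 FPKM for DU145, 118 for DTXR and 147 for CTXR, without the drop seen in DKK1.

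Along the other lineage DKK1 was at 0 for C4-2B, 1.39 FPKM for TaxR and 0.743 for CabR. TaxR passed the size rule and CabR did not, and both calls depend on the pseudocount. With 2 the TaxR ratio was 0.76, not called, and with 0.1 the CabR ratio was 3.08, called. Of 10 DU145-side marker genes, 9 were under 1 FPKM in C4-2B, and these stood in TaxR at 1.06% to 19.0% of their DU145 level, with a median of 1.81%. The marker S100A6 had 8.06 FPKM in TaxR against 0 in C4-2B and 0.353 in CabR, and no marker of the 10 was at 0 in TaxR. The summed FPKM of all 10 was 61.6 for C4-2B, 79.6 for TaxR and 43.3 for CabR, against 1819 in DU145. Most of the sum in C4-2B, TaxR and CabR was VIM (61.0, 60.8 and 41.3 FPKM), the marker outside those 9. The sums therefore say little about the 9. DKK1 in TaxR was at 0.362% of DU145, below every one of those 9 markers, and at 1.09% of DTXR and 0.987% of CTXR, inside the markers' ranges there (0.331% to 3.96% and 0.662% to 5.40%). In CabR the 9 markers stood at 0% to 11.2% of DU145, with a median of 0.0865%. DKK1 in CabR, at 0.194% of DU145, was inside that range. RSPO3, at 33.6 FPKM in DU145, was listed at 0 in TaxR.

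**Figure D2:**
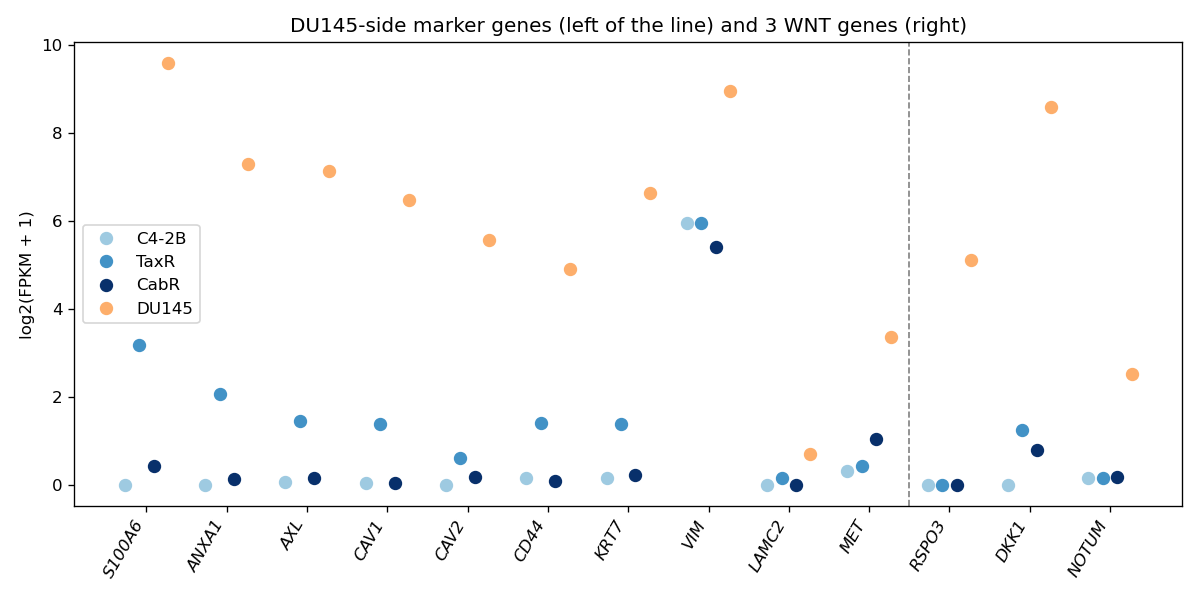
log2(FPKM + 1) of 10 DU145-side marker genes and of RSPO3, DKK1 and NOTUM in C4-2B, TaxR, CabR and DU145, 1 point per library. TaxR lies above C4-2B for S100A6 (8.06 against 0 FPKM) and for DKK1 (1.39 against 0 FPKM), while RSPO3 is at 0 in C4-2B, TaxR and CabR.

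The secreted inhibitors SFRP1 and NOTUM were higher in CTXR. SFRP1, a decoy that binds WNT proteins (ENSG00000104332, chromosome 8, 41261958 to 41309497, minus strand), had 1.13 FPKM for DU145, 0.264 for DTXR and 8.19 for CTXR. Its C4-2B, TaxR and CabR values were 0.200, 0.199 and 0.132. CTXR was 7.26-fold above DU145 (log2 ratio 2.11) and 31.0-fold above DTXR (2.86), while DTXR stood at -0.75 from DU145. CTXR was thus the high library, and DTXR was near the level of the C4-2B lineage. NOTUM, an enzyme that removes the lipid WNT proteins need (ENSG00000185269, chromosome 17, 81952507 to 81961840, minus strand), stood at 4.72 FPKM for DU145, 6.24 for DTXR and 11.9 for CTXR. Its log2 ratio to DU145 was 1.17 in CTXR and 0.34 in DTXR, and it stayed at 0.123 to 0.136 FPKM in C4-2B, TaxR and CabR.

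RNF43, the Frizzled-directed ubiquitin ligase, was higher in DTXR alone among the 4 sublines. Its FPKM (ENSG00000108375, chromosome 17, 58352500 to 58417595, minus strand) was 0.862 for DU145, 4.53 for DTXR and 0.966 for CTXR, 5.26-fold higher in DTXR than in DU145 (log2 ratio 1.57) and 4.69-fold lower in CTXR than in DTXR (-1.49). In the other lineage C4-2B had 2.66, TaxR 1.40 and CabR 3.62 FPKM, and no step passed the rule, though CabR stood 0.95 above TaxR. The gene span of RNF43 overlaps SUPT4H1 on the same strand, whose FPKM of 31.8 (DU145), 40.5 (DTXR) and 43.0 (CTXR) did not follow RNF43.

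LEF1, a nuclear partner of beta-catenin and itself a target, was lower in CTXR than in DU145 or DTXR. LEF1 (ENSG00000138795, chromosome 4, 108047545 to 108168956, minus strand) had 2.53 FPKM for DU145, 5.72 for DTXR and 0.619 for CTXR, so that CTXR was 4.09-fold below DU145 (log2 ratio -1.12) and 9.24-fold below DTXR (-2.05). DTXR stood at 0.93, short of the rule. With a pseudocount of 2 LEF1 in CTXR was at -0.79 from DU145, and with 0.1 it passed the rule in TaxR, CabR and DTXR (1.25, 1.06 and 1.15). C4-2B held 0.615 FPKM, TaxR 1.60 and CabR 1.39, with log2 ratios of 0.69 and 0.57. TCF7, the related factor (ENSG00000081059, chromosome 5, 134114711 to 134151865, plus strand), was at 0.669 FPKM for C4-2B, 0.858 for TaxR and 1.66 for CabR. It was at 2.33 FPKM for DU145, 2.24 for DTXR and 1.79 for CTXR. It passed the rule in no subline, and its span overlaps the abundant gene SKP1 on the other strand, so its values are uncertain. TCF7 passed in CabR with a pseudocount of 0.1 (1.19).

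AXIN2, a scaffold of the destruction complex and the most widely used readout of beta-catenin activity, passed the rule in no comparison, though with a pseudocount of 0.1 it was lower in DTXR (-1.22) and higher from DTXR to CTXR (1.17). AXIN2 (ENSG00000168646, chromosome 17, 65528563 to 65561647, minus strand) was at 1.70 FPKM for C4-2B, 2.08 for TaxR and 1.54 for CabR. In DU145 it was at 0.834 FPKM, in DTXR at 0.300 and in CTXR at 0.798. The log2 ratios to the parent lay between -0.50 in DTXR and 0.19 in TaxR. Of the 5 listed targets (AXIN2, LEF1, NOTUM, RNF43 and DKK1), no pair had the same calls across the 4 sublines. In CTXR, NOTUM was higher, LEF1 and DKK1 were lower and the other two did not pass.

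**Figure D3:**
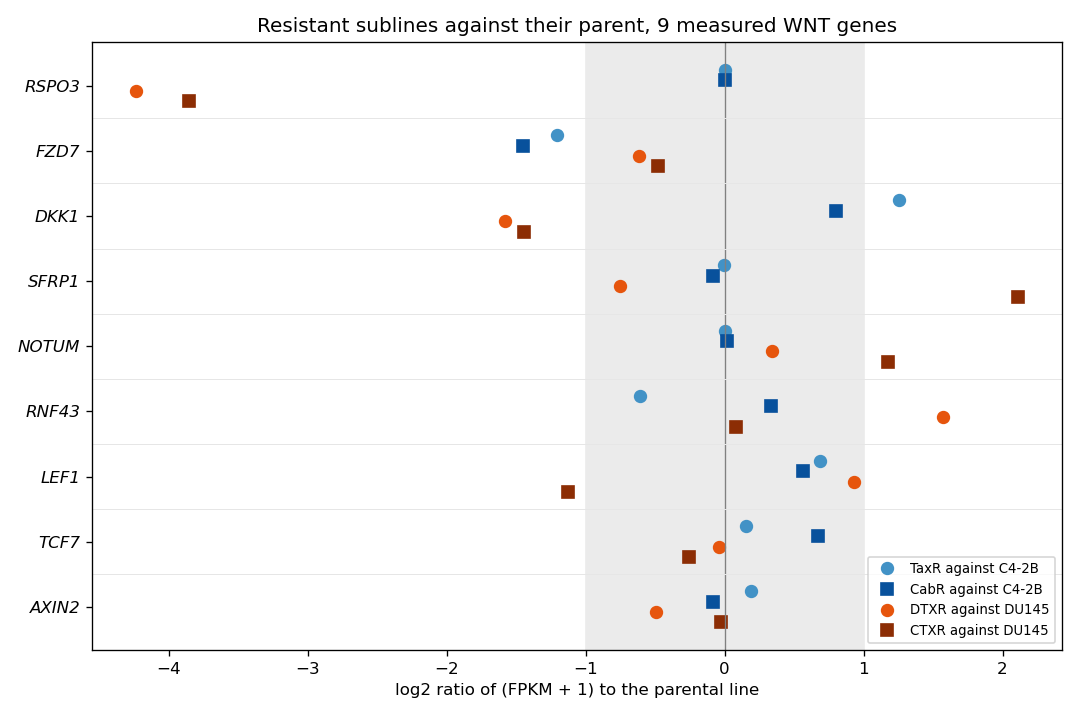
log2 ratio of (FPKM + 1) of each resistant subline to its parent for the 9 measured genes, 1 point per subline; the grey band spans ratios under 1 in size. RSPO3 lies at -4.24 and -3.85 in DTXR and CTXR, and AXIN2 and TCF7 stay inside the band in all 4 sublines.

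The counts along each lineage were small. In TaxR against C4-2B, 1 of 9 measured genes was higher (DKK1; 2.52% of all 17436 measured genes were) and 1 was lower (FZD7; 5.64%). In CabR against C4-2B none was higher (2.67% of all) and 1 was lower (FZD7; 6.2%), and from TaxR to CabR none was higher (1.75%) or lower (1.84%). The median log2 ratio of the 9 genes was 0.00 in TaxR, 0.02 in CabR and -0.08 from TaxR to CabR, beside 0.00 for all measured genes in each. With 9 genes a single call already makes 11.1%. TaxR and CabR share the C4-2B library.

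In DTXR against DU145, 1 of 9 was higher (RNF43; 5.37% of all measured genes) and 2 were lower (RSPO3 and DKK1; 5.1%). In CTXR against DU145, 2 were higher (SFRP1 and NOTUM; 7.45%) and 3 were lower (RSPO3, DKK1 and LEF1; 5.47%). From DTXR to CTXR, 1 was higher (SFRP1; 7.29%) and 2 were lower (RNF43 and LEF1; 5.25%). The medians were -0.50 in DTXR, -0.25 in CTXR and 0.14 from DTXR to CTXR, beside 0.00 for all measured genes. As shares of the 9 genes, the lower calls came to 22.2% in DTXR and 33.3% in CTXR. Both comparisons share the single DU145 library. The genes were chosen with earlier results of these data known, so these shares cannot show an excess over all genes. The parental lines themselves differed more widely. In DU145 against C4-2B, 4 of 9 genes were higher (RSPO3, DKK1, NOTUM and LEF1; 17.3% of all) and none was lower (19.5%), with a median of 1.0 beside -0.02 for all. RSPO3, NOTUM and SFRP1 count as measured only through the DU145 lineage, and AXIN2 only through the C4-2B lineage. The filter thus tilts this count and median toward DU145.

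Replication comes solely from the 2 lineages, each of which reached both stages. A limma model of stage plus lineage over the 6 libraries, with Benjamini-Hochberg adjustment over the 17436 genes, called 0 genes at an adjusted p of 0.05 in each of its 3 comparisons (0% of genes, lowest adjusted p 0.141, 0.152 and 0.108). At an unadjusted p under 0.05, 772 genes (4.43%) passed for docetaxel-resistant against parental, 835 (4.79%) for cabazitaxel-resistant against parental and 416 (2.39%) for cabazitaxel-resistant against docetaxel-resistant. Of the 9 listed genes FZD7 alone was among them, in the first 2 comparisons. Its log2 difference was -0.91 ± 0.36 (SE) at the docetaxel stage and -0.97 ± 0.36 at the cabazitaxel stage, lower in 4 of 4 sublines, with limma adjusted p-values of 0.93 and 0.86. For RSPO3 the differences were -2.12 ± 0.96 and -1.93 ± 0.96 (limma adjusted p = 0.93 and 0.86), with RSPO3 at 0 throughout the C4-2B lineage.

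Around the 10 genes, a wider list of 92 other WNT pathway genes was examined, of which 65 were measured. This list too was chosen with earlier results of these data known. In TaxR 4 of the 65 were higher and 2 lower, and in CabR 3 were higher and 2 lower. In DTXR 3 were higher and 5 lower, and in CTXR 4 were higher and 6 lower, each against its parent. From TaxR to CabR 1 was lower (WLS) and none higher. From DTXR to CTXR 8 were higher (WNT5B, WNT7B, FZD2, FZD9, LGR4, KREMEN2, APC2 and TLE2) and 4 lower (FZD3, TRABD2A, PYGO1 and TLE3), or 12.3% and 6.15% of the list beside 7.29% and 5.25% of all measured genes. KREMEN2 and TRABD2A overlap the more abundant genes PKMYT1 and TMSB10 on the other strand, so their values are uncertain. The medians were 0.04, 0.05, -0.05 and 0.03 in TaxR, CabR, DTXR and CTXR, beside 0.00 for all measured genes. The shares higher were 6.15%, 4.62%, 4.62% and 6.15%, and the shares lower 3.08%, 3.08%, 7.69% and 9.23%, in the same order. Over all measured genes the shares higher were 2.52%, 2.67%, 5.37% and 7.45%, and the shares lower 5.64%, 6.2%, 5.1% and 5.47%. The CabR count came to 0 higher and 1 lower with a pseudocount of 2.

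Of 9 measured WNT ligands, WNT7B was the one with the widest range in the DU145 lineage, opposite in direction to RSPO3. It had 0.587 FPKM for DU145, 12.2 for DTXR and 30.6 for CTXR, 20.8-fold and 52.1-fold above the parent (log2 ratios 3.06 and 4.32). C4-2B held 10.9 FPKM of WNT7B, TaxR 18.3 and CabR 18.9, with log2 ratios of 0.70 and 0.74 that did not pass. WNT5B was higher in CTXR, at 6.47 FPKM against 2.04 in DU145 and 1.31 in DTXR, and it overlaps FBXL14 on the other strand. WNT6 was higher in TaxR and CabR, at 1.61 and 1.70 FPKM against 0.0806 in C4-2B, and was at most 0.0798 FPKM in the DU145 lineage. Both WNT6 ratios fell short of the rule with a pseudocount of 2 (0.79 and 0.83). WLS, which carries WNT proteins to the cell surface, was higher in both C4-2B sublines, at 7.13 FPKM in TaxR and 2.39 in CabR against 0.555 in the parent, the latter short of the rule with a pseudocount of 2 (0.78). In TaxR it stood at 35.5% of its DU145 level of 20.1 FPKM, above the range of the DU145-side markers. WLS had 41.1 FPKM in DTXR and 26.7 in CTXR. Its log2 ratios to DU145 were 0.998 and 0.39, the first just short of the rule.

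Among 16 measured receptors LGR4, a receptor for R-spondins, was higher in both resistant DU145 sublines, in which RSPO3 was lower. It had 3.27 FPKM for DU145, 12.1 for DTXR and 69.4 for CTXR (log2 ratios 1.62 and 4.04), and 5.52 to 7.10 FPKM in the C4-2B lineage. ROR1, a receptor for WNT5A, was higher in DTXR alone of the 4 sublines (2.45, 7.13 and 3.27 FPKM). FZD2 (22.1, 7.23 and 19.1 FPKM) and FZD9 (1.19, listed at 0, and 1.22) were lower in DTXR, while FZD3 (6.47, 5.81 and 1.32) and ROR2 (1.53, 0.368 and 0.166) were lower in CTXR. The calls of FZD9 (-0.67) and ROR2 (-0.71) were lost with a pseudocount of 2. PTK7, a co-receptor, was lower in CabR, at 5.79 FPKM against 13.0 in C4-2B and 9.21 in TaxR (log2 ratio -1.05, -0.99 after upper-quartile scaling and -0.95 with a pseudocount of 2). The co-receptors LRP5 and LRP6 passed the rule in no subline.

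**Figure D4:**
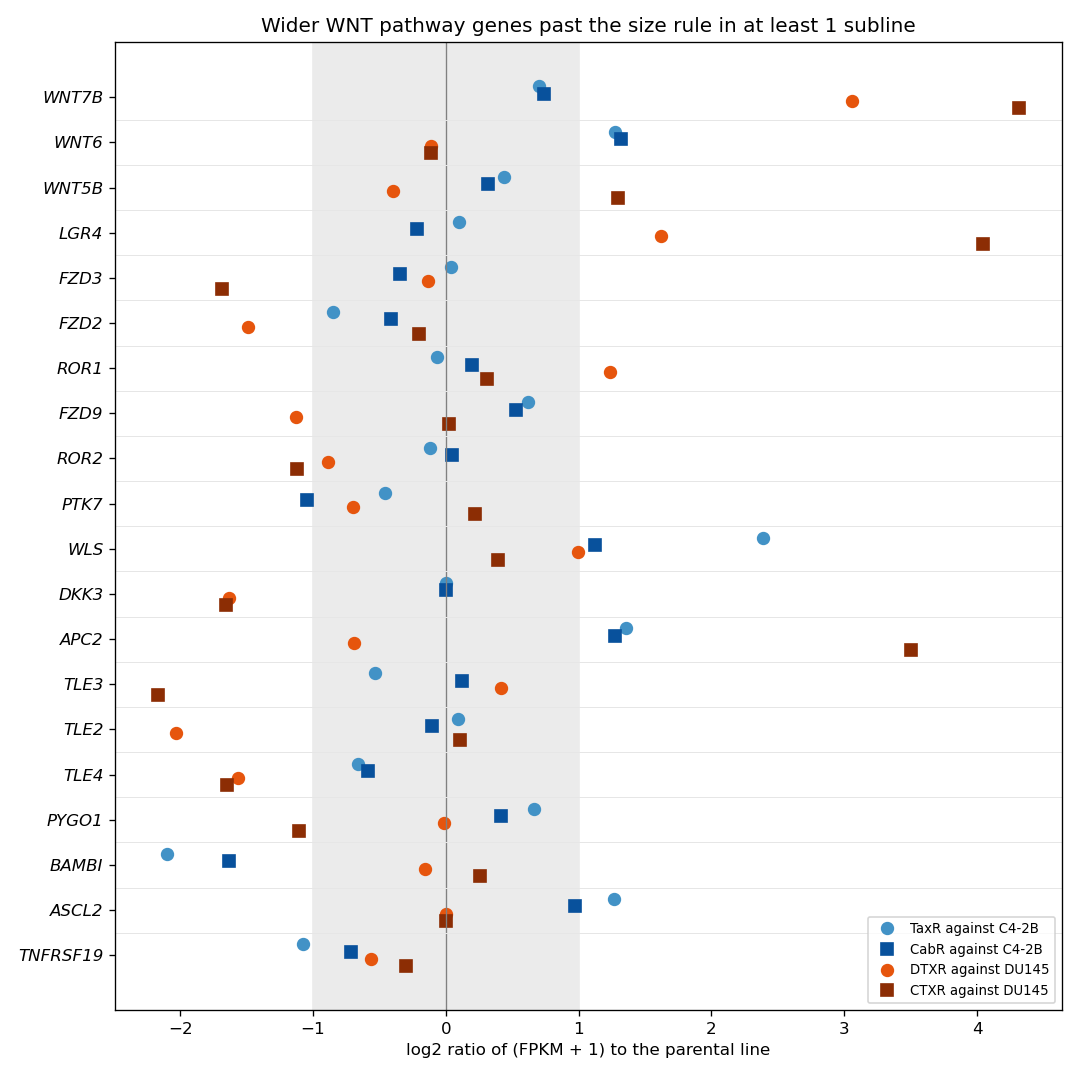
log2 ratio of (FPKM + 1) to the parent for the 20 wider pathway genes past the size rule in at least 1 subline, 1 point per subline, with the grey band as ratios under 1 in size. WNT7B (3.06 and 4.32) and LGR4 (1.62 and 4.04) lie to the right in DTXR and CTXR, and BAMBI (-2.10 and -1.63) to the left in TaxR and CabR.

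DKK3, a member of the DKK family, was lower in both resistant DU145 sublines like DKK1, at 0.458 and 0.431 FPKM against 3.51 in DU145, and was listed at 0 in the C4-2B lineage. Of 5 measured membrane inhibitors RNF43 was the single gene past the rule against a parent, higher in DTXR (5.37% of all measured genes were). ZNRF3, its close relative, had 4.45 to 6.14 FPKM over the 6 libraries. Of 16 genes of the cytoplasmic relay, APC2, a relative of APC, was the single gene past the rule in a subline against its parent. APC2 was higher in 3 sublines, TaxR, CabR and CTXR, beside 2.52%, 2.67% and 7.45% of all measured genes. C4-2B held 0.853 FPKM, TaxR 3.76 and CabR 3.47, and DU145 held 1.15, DTXR 0.334 and CTXR 23.4. The CabR call was lost with a pseudocount of 2 (0.94). APC2 overlaps C19orf25 and the antisense gene AC027307.2 on the other strand, so its values are uncertain. C19orf25 had 46.3, 35.4 and 37.8 FPKM along DU145, DTXR and CTXR and did not follow APC2 there. Along C4-2B, TaxR and CabR it had 30.2, 37.2 and 43.6 FPKM. CTNNB1, which encodes beta-catenin, had 69.6 to 135 FPKM and did not pass in any subline.

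Of 14 measured nuclear factors no gene was called in TaxR or CabR. Over all measured genes 2.52% were higher and 5.64% lower in TaxR, and 2.67% and 6.2% in CabR. In DTXR 0 were higher and 2 lower (TLE2 and TLE4), beside 5.37% and 5.1% of all measured genes. In CTXR 0 were higher and 4 lower (LEF1, PYGO1, TLE3 and TLE4), beside 7.45% and 5.47%. The TLE co-repressors, which bind TCF and LEF factors in the absence of beta-catenin, included 3 genes called in the DU145 lineage, differing in the sublines concerned. TLE4, at 32.7 FPKM for DU145, 10.4 for DTXR and 9.78 for CTXR, was lower in both (log2 ratios -1.56 and -1.65). TLE2 was lower in DTXR (21.9, 4.61 and 23.7 FPKM), and TLE3 was lower in CTXR (6.32, 8.77 and 0.632). PYGO1, a beta-catenin cofactor, was also lower in CTXR (3.56, 3.51 and 1.12 FPKM), but not with a pseudocount of 2 (-0.83).

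Of 14 measured transcriptional targets, which include TCF7 and the 5 listed targets above, 2 were higher in TaxR (DKK1 and ASCL2) and 2 lower (BAMBI and TNFRSF19), beside 2.52% and 5.64% of all measured genes. In CabR 0 were higher and 1 lower (BAMBI), beside 2.67% and 6.2%. In DTXR 1 was higher (RNF43) and 1 lower (DKK1), beside 5.37% and 5.1%. In CTXR 1 was higher (NOTUM) and 2 lower (DKK1 and LEF1), beside 7.45% and 5.47%. BAMBI, a decoy receptor for TGF-beta family signals, was lower in both sublines, at 3.15 FPKM in TaxR and 4.75 in CabR against 16.8 in C4-2B. ASCL2, a transcription factor, had 8.42, 21.6 and 17.5 FPKM and passed in TaxR (1.26) but not in CabR (0.97). TNFRSF19 had 48.1, 22.4 and 29 FPKM and passed in TaxR (-1.07) but not in CabR (-0.71). CCND1, which encodes cyclin D1, had 73.3 to 138 FPKM and passed in no subline.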

How the data were processed

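Each library came as 1 deposited table of FPKM by Ensembl gene identifier, per the file headers. The submitters' processing notes name HISAT, StringTie, Cuffnorm and GRCh38. The sources used here give no versions, annotation, use of strand or joint scaling. Per the labels' protocols, TRIzol RNA was made into stranded mRNA libraries. C4-2B-side markers other than KLK3 are not reported here. The word old in the TaxR title is not explained. FPKM are model estimates, so an exact 0 can be a failed estimate, though all 60658 values of each library carried the status OK. The depth is unknown.

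Of 60658 identifiers 56550 matched a symbol table and 57047 GENCODE release 29. Log2 ratios used a pseudocount of 1 FPKM on genes with 1 FPKM in at least 1 library. limma 3.58.1 (R 4.3.3) was run with an intensity trend and two-sided tests. For cabazitaxel-resistant against parental it was also run on simulated data with 17436 genes. It called 43 of 100 well-expressed genes changed by 2 on the log2 scale, 83 of 100 changed by 4, and 4 of 17236 unchanged genes. Each change was planted in both lineages and at both resistant stages, so the recovery of changes in a single lineage was not simulated. Python 3.11.15, numpy 2.4.6 and pandas 2.3.3 were used. The text names the 10 genes, up to 4 genes past the size rule per wider list with every gene of a count of 5 or fewer, and the 3 genes nearest to RSPO3 and DKK1 among protein-coding genes. Genes beyond that rule (among them LRP5, LRP6, ZNRF3, CTNNB1 and CCND1) were named after their values were seen, and Y-linked genes were left out of the nearest genes after the files were seen. The 10 genes and the lists were chosen with earlier results of these data known. Alternatives were other pseudocounts, no filter, 4 rescalings, other limma settings, leaving out each library, and TaxR without a DU145-lineage share. Removing a DTXR or CTXR share and using protein-coding genes only were chosen after seeing the data.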

Additional observations from a re-analysis of the deposited data

Results flagged for a closer look

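DKK1 was called in opposite directions in the 2 lineages at the docetaxel stage. Its log2 ratio was 1.25 in TaxR against C4-2B and -1.58 in DTXR against DU145. The first ratio is against a library in which DKK1 is listed at 0, so its size depends on the pseudocount. Each lineage has 1 library per line, and the difference between the lineages was not tested.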

How the results depend on the processing

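Of 112 recomputed counts of listed genes, 100 stayed within 1.5 times the main count. The counts with no filter and with protein-coding genes only are among them and could not change. All 10 genes are protein-coding, and WNT5A, under 1 FPKM throughout, cannot pass the rule. With a pseudocount of 0.1 more low genes passed. Against C4-2B, 2 were higher in TaxR (DKK1 and LEF1) and 3 in CabR (DKK1, LEF1 and TCF7). From TaxR to CabR 1 was higher (RNF43). In DTXR 2 were higher (RNF43 and LEF1) and 4 lower, with AXIN2 and SFRP1 added. From DTXR to CTXR 2 were higher (SFRP1 and AXIN2). In DU145 against C4-2B 6 were higher, with SFRP1 and TCF7 added, and 1 was lower (RNF43). TCF7 also passed between the parents after median-ratio scaling (1.06). With a pseudocount of 2, 0 were higher and 0 lower in TaxR, where FZD7 stood at -0.95 and DKK1 at 0.76, and LEF1 in CTXR stood at -0.79. With a DU145, DTXR or CTXR share removed from TaxR, 0 were higher there, by construction, since DKK1 in TaxR lies below the share removed. Over all measured genes, 1228 were higher and 1917 lower in TaxR with a pseudocount of 0.1, 220 and 568 with a pseudocount of 2, and 252 and 551 with protein-coding genes only, against 439 and 983. In DTXR they were 1613 and 1832 with 0.1 and 610 and 525 with 2, against 936 and 890, and in CTXR 2187 and 1810 with 0.1 and 588 lower with 2, against 1299 and 953. Of 671 single-gene ratios under alternatives, 16 fell below the size rule, 13 passed it anew and 0 reversed. Those with no filter equal the main ratios by construction. Genes of the wider list entered only with ratios that passed in the main setting, so they could not pass anew. Scaling to the same total moved the median of all genes in TaxR to -0.12 and changed no call of the 10 genes there. With the same total without mitochondrial genes, 6.45% of all genes were higher and 7.08% lower in CTXR, against 7.45% and 5.47%. PTK7 in CabR lost its call with the same upper quartile (-0.99).

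The limma counts stayed at 0 without trend, without the lineage term, with median-ratio scaling and with each library left out, where a lone sample is assumed to vary like the rest (range 0 to 0 in each comparison). With a pseudocount of 0.1, 1 gene was lower in cabazitaxel-resistant against parental (SNORD17), and 1 was higher (RMRP) and 1 lower (SNORD17) in cabazitaxel-resistant against docetaxel-resistant, both noncoding RNAs, named after the calls were seen. With no filter, 60658 genes, most of them under 1 FPKM throughout, entered the estimate of spread. Then 404 were higher and 537 lower at the docetaxel stage, 582 and 566 at the cabazitaxel stage and 377 and 264 between the stages, and limma adjusted p-values were 1.7e-06 and 3.2e-05 for RSPO3 and 0.023 for SFRP1 between the stages. With the filter kept, the lowest limma adjusted p-value over all alternatives was 0.57 for RSPO3, 0.59 for SFRP1 and 0.67 for FZD7. No paired analysis was possible because each line has 1 library, other than lineage as a block. Low FPKM limit most genes here, since a gene under 1 FPKM in both lines cannot pass.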
